A study of Mus musculus with 6 samples.

Results

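The 10 genes described here encode the NF-κB transcription factors and the proteins that hold them back. They were taken by their symbols from a table of 21847 mouse genes, in which all 10 had a row. The subunits are Nfkb1, Nfkb2, Rela, Relb and Rel, and the feedback inhibitors and modulators are Nfkbia, Nfkbie, Nfkbiz, Bcl3 and Tnfaip3. RNA was sequenced from mouse spleen cells sorted after 3 days on human cord tissue mesenchymal stromal cells (MSCs), which support tissue repair and dampen immune responses in culture. The MSCs carried Qtracker, a quantum dot dye, and the splenocytes added to them had been depleted of T cells. Qtracker positive cells (3 libraries, recorded as having engulfed MSCs) were set against Qtracker negative cells (3 libraries, recorded as not having done so), and the numbers 1 to 3 mark pairs. All 6 libraries therefore come from cells that shared a well with MSCs, and no culture free of MSCs was analysed here. The labels call the cells splenic macrophages. One field describes a CD11b+ gate without Ly6G, and another describes a CD11b+ gate without Ly6C. The sources used here do not give the strain, age or genotype of the mice, or say whether replicates were separate animals. The p-values thus measure only how far these libraries spread, which may be technical.

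NF-κB proteins act as dimers that wait in the cytoplasm bound to IκB proteins. When a Toll-like, interleukin or tumour necrosis factor receptor is engaged, the IκB kinase marks IκB for destruction, the dimers enter the nucleus and inflammatory and survival genes are switched on. Several of the induced genes encode the inhibitors themselves and some of the subunits, so the pathway limits and resets its own activity, and in macrophages this loop shapes how long cytokines are made. A slower branch, driven by receptors such as CD40 and the lymphotoxin receptor, cuts the Nfkb2 precursor so that it can work with Relb.

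The promoters of the members are shown because NF-κB is known to act on several of its own genes. RefSeq promoter windows (GRCm38.p6) were at hand for 7 of the 10 members, with 250 bases before and 50 after each start, and Nfkb1, Relb and Nfkbiz had no entry. The 10-base κB consensus was searched on both strands, and overlapping matches were kept. It was found in at least 1 window of 6 of the 7 members, and in 9.55% of all 27025 genes with a window. Counted by window, it stood in 8 of the members' 10 windows and in 8.46% of all 32851. Below, the bases from 135 before the start to 15 after it are given 5′ to 3′ for 1 start of each gene, with matches in capitals.
Nfkb2, chr19:46304602-46304751, forward strand: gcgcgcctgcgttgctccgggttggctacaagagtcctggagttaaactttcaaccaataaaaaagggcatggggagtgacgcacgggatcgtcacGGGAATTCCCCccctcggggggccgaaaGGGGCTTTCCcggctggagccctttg
Rela, chr19:5637406-5637555, forward strand: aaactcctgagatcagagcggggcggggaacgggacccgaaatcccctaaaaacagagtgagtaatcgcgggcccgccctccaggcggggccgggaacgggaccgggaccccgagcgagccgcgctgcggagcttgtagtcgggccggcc
Rel, chr11:23770955-23771104, reverse strand: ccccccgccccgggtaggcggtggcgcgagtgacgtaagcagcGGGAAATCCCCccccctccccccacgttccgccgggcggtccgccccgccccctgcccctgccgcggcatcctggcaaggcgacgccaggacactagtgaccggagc
Nfkbia, chr12:55492633-55492782, reverse strand: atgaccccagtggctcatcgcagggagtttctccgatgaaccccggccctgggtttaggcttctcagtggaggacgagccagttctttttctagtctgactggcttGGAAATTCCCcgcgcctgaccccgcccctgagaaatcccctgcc
Nfkbie, chr17:45555565-45555714, forward strand: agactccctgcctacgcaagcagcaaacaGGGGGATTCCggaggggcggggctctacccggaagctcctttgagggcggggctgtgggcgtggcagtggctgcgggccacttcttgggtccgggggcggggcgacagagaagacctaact
Bcl3, chr7:19822741-19822890, reverse strand: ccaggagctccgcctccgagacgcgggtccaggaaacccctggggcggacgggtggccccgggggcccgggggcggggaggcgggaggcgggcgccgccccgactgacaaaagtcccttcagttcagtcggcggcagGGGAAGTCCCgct
Tnfaip3, chr10:19015396-19015545, reverse strand: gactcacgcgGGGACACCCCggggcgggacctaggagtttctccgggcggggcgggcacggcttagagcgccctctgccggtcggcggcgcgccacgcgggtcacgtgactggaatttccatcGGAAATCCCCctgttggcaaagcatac
Tnfaip3 had a match from 125 to 116 bases before its start and another from 12 to 3 before it. The matches of Nfkb2 lay from 39 to 29 and from 11 to 2 bases before the start, the first made of a pair that overlap. Rel had an overlapping pair from 92 to 82 bases before its start, Nfkbie 1 match from 106 to 97 before, Nfkbia 1 from 29 to 20 before, and Bcl3 1 from base 3 to base 12 after. The Rela window and another Tnfaip3 window held no match, and another pair of Nfkb2 windows, not printed, had matches. A match describes the sequence and does not show that a factor binds there.

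Library totals ran from 33943090 to 55506993 estimated counts. Members had between 905 and 13381 counts in a library, so counting error alone was at most 3.32% of a level. Replicate 1 stood apart from replicates 2 and 3. Between replicates 2 and 3 the median absolute log2 difference over genes of 500 to 2000 counts was 0.0759 in positive and 0.0512 in negative libraries, whereas replicate 1 differed from them by 0.24 to 0.243 in positive and by 0.318 to 0.32 in negative libraries. For these genes the variance between replicates 2 and 3 was 4.63 times that of counting in positive and 2.18 times in negative libraries. Between replicate 1 and the others it was 33.7 and 36.1 times in positive and 61.8 and 61.5 times in negative libraries. Member changes below are therefore also given without replicate 1. The small p-values of those fits rest on the narrow spread between replicates 2 and 3. Marker lists showed that the 2 groups differ in more than dye. Of 11 macrophage markers, 7 rose and 0 fell in Qtracker positive cells. Their summed level was 11800 to 14350 CPM (counts scaled to library size) in positive and 612.8 to 4185 CPM in negative libraries. Without replicate 1, 10 rose and 1 fell. The 1 that fell was Itgam, the gene of CD11b (log2 fold change -0.28, edgeR adjusted p = 0.00178). Itgam had 2716, 1820 and 1836 CPM in positive replicates 1, 2 and 3, against 259.6, 2269 and 2211 CPM in negative replicates 1, 2 and 3. Of 10 B cell markers 9 fell, with sums of 941.2 to 1010 CPM in positive libraries, against 22940 CPM in negative replicate 1 and 10420 and 10390 CPM in negative replicates 2 and 3. Of 11 neutrophil markers 9 fell, with sums of 1305 to 1922 CPM in positive libraries, against 3215 CPM in negative replicate 1 and 65750 and 65900 CPM in negative replicates 2 and 3. Within these sums Mmp8, which did not pass, had 1004, 693.5 and 783.4 CPM in positive replicates 1, 2 and 3. In negative replicates 1, 2 and 3 it had 98.76, 887.2 and 947.9 CPM. T cell markers fell for 7 of 8 genes and rose for Cd28, NK cell markers fell for 5 of 6 tested, and dendritic cell markers fell for 4 of 5 tested. Their sums were at most 104.9, 1.427 and 19.03 CPM in positive libraries and at most 204.2, 34.26 and 413.7 CPM in negative libraries. Of the dendritic cell sum of 413.7 CPM, in negative replicate 1, Ccr7 alone had 353.1 CPM. The T cell sum was lower in positive than in negative replicate 1 (44.33 against 204.2 CPM). It was higher in positive replicates 2 and 3 (91.24 and 104.9 CPM) than in negative replicates 2 and 3 (51.3 and 52.1 CPM). Cd28 alone had 84.91 and 99.3 CPM in positive replicates 2 and 3. The eosinophil, basophil and mast cell list had 2 genes that rose and 5 that fell, with sums of 81.71 to 312 CPM in positive and 75.92 to 374.7 CPM in negative libraries. Klra8 and Cd209a had 0 counts in every positive library. In the negative libraries, which the labels also call macrophages, the neutrophil sum exceeded the macrophage sum every time. The B cell sum was the highest of all in negative replicate 1. These sums join different genes and are not scaled by length, so they do not rank cell types by number. In sorted bulk RNA, fewer cells of a type and less RNA per cell cannot be told apart.

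**Figure D1:**
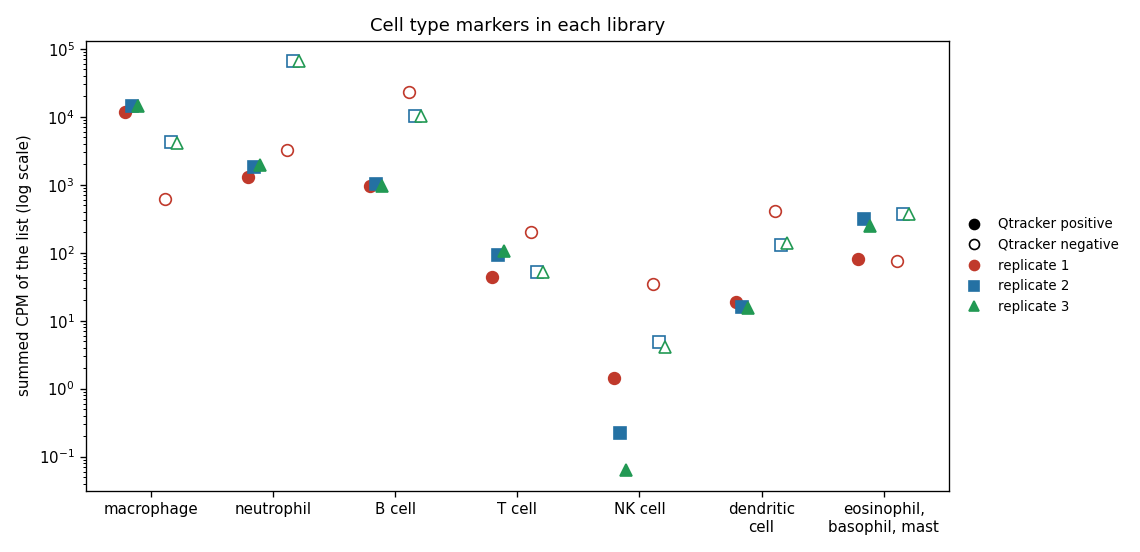
Summed CPM of each marker list (vertical, log scale), with filled symbols for Qtracker positive and open symbols for Qtracker negative libraries and 1 symbol shape per replicate. B cell markers sum to 941.2 to 1010 CPM in positive libraries and reach 22940 CPM in negative replicate 1.

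Among the 10 members, Tnfaip3 rose in Qtracker positive cells, Nfkb1, Nfkbiz and Bcl3 fell, and 6 did not pass the test. Tnfaip3, which encodes the ubiquitin-editing enzyme A20 that shuts signalling down upstream of the IκB kinase, rose 1.46-fold, and the genes that fell stood at 0.531-fold (Nfkb1), 0.643-fold (Nfkbiz) and 0.612-fold (Bcl3). Calls were made at an adjusted p under 0.05 by edgeR's quasi-likelihood test on all genes with replicate number as a block. By that rule 34.9% of 14605 tested genes were called, 18.5% higher and 16.3% lower, so 4 of 10 members is a share near the background. The median log2 fold change of the members was -0.59, against -0.01 over all tested genes. Without replicate 1 it was -0.24, against 0.01 over all genes tested there. With all pairs the median absolute change of the members, 0.59, was below that of all tested genes, 0.72. Levels of the positive and negative libraries did not overlap for 8 members, and for 59.4% of all tested genes. Without replicate 1, the same 4 passed, and Rel and Nfkbie also fell, 6 of 10 members against 72.9% of 14932 genes. Without replicate 2 the adjusted p of Nfkb1, Nfkbiz, Bcl3 and Tnfaip3 was 0.164, 0.234, 0.163 and 0.251, and without replicate 3 it was 0.157, 0.249, 0.217 and 0.266, so none of the 4 was called. Those fits called 2.1% of all genes without replicate 2 and 0 genes without replicate 3. The log2 fold changes there were -0.97 and -1.03 for Nfkb1, -0.60 both times for Nfkbiz, -0.81 and -0.75 for Bcl3, and 0.54 and 0.55 for Tnfaip3. DESeq2 called 22.2% of genes without replicate 2 and 21.8% without replicate 3, and 0 members higher and 0 lower each time.

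**Figure D2:**
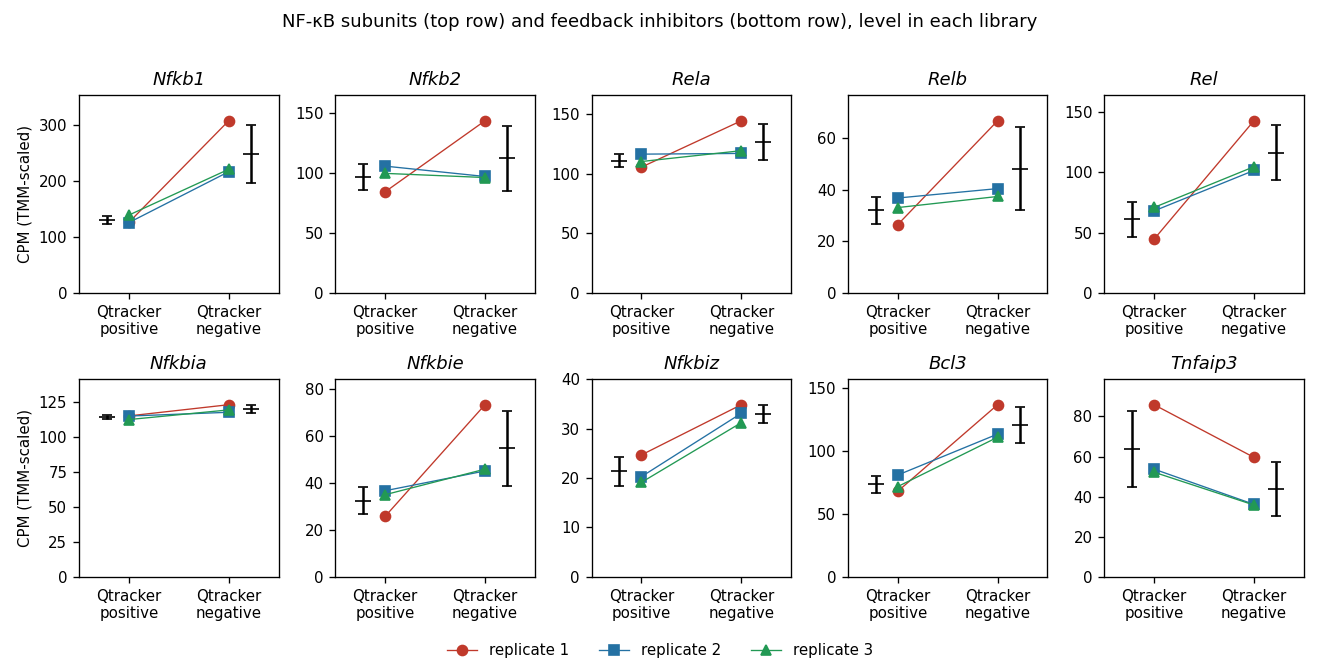
Level of each member in CPM (vertical, from 0) in the 3 Qtracker positive and 3 Qtracker negative libraries, with lines joining the numbered pairs and black bars for mean ± SD (n = 3). Tnfaip3 is higher in the positive library of every pair, and all 10 genes are highest among the negative libraries in replicate 1.

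Of the 5 subunits, Nfkb1 fell and 4 did not pass. Nfkb1, whose precursor protein is trimmed to a DNA-binding subunit that pairs with the product of Rela, lies on mouse chromosome 3 from 135584655 to 135691547 (mm10). It had 125.8, 125.4 and 138.8 CPM in Qtracker positive replicates 1, 2 and 3, against 306.8, 216.0 and 220.4 CPM in negative replicates 1, 2 and 3. The groups did not overlap, and positive libraries lay close together. The means were 130.0 ± 7.64 CPM in positive and 247.7 ± 51.2 CPM in negative libraries (SD, n = 3 each), with a log2 fold change of -0.91 ± 0.18 (standard error) and adjusted p = 0.0325. Without replicate 1 the log2 fold change was -0.71 ± 0.0469 (adjusted p = 8.32e-05).

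Rel encodes c-Rel, a subunit prominent in lymphocytes and myeloid cells that drives Il12b in mouse macrophages. It lies on chromosome 11 from 23736847 to 23770970. Its level was 44.62, 68.07 and 70.95 CPM in positive replicates 1, 2 and 3, against 142.8, 101.6 and 104.7 CPM in negative replicates 1, 2 and 3. Every positive library was below every negative one, and the gap was widest in pair 1, at -1.68 on the log2 scale against -0.58 and -0.56 in pairs 2 and 3. The fit over all pairs gave -0.93 ± 0.292, which did not pass (adjusted p = 0.0775). Without replicate 1 it gave -0.56 ± 0.0395 and passed (adjusted p = 0.00011). DESeq2 (0.0138) and the fit without the replicate block (0.0247) also called it on all libraries.

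Rela, on chromosome 19 from 5637483 to 5648130, encodes the subunit that carries most of the activating power of the classical dimer. It had 105.7, 116.6 and 110.4 CPM in positive replicates 1, 2 and 3, against 144.6, 117.2 and 119.5 CPM in negative replicates 1, 2 and 3. Apart from negative replicate 1, the libraries lay within a narrow band. Its log2 fold change was -0.19 ± 0.143 (adjusted p = 0.348), and -0.05 ± 0.045 without replicate 1 (adjusted p = 0.36).

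The slower branch was represented by Nfkb2 and Relb. Nfkb2, on chromosome 19 from 46304320 to 46312385, had 84.41, 105.8 and 99.75 CPM in positive replicates 1, 2 and 3, against 143.6, 97.16 and 96.3 CPM in negative replicates 1, 2 and 3. It was the 1 member whose pairs disagreed in direction, with a log2 difference of -0.77 in pair 1 but 0.12 and 0.05 in pairs 2 and 3. Its log2 fold change of -0.20 ± 0.233 (adjusted p = 0.54) turned to 0.10 without replicate 1 (adjusted p = 0.0834). Relb, on chromosome 7 from 19606217 to 19629438, had 26.54, 36.86 and 33.15 CPM in positive replicates 1, 2 and 3, against 66.82, 40.51 and 37.45 CPM in negative replicates 1, 2 and 3. The groups were separated by less than 1 CPM at their nearest libraries, and pair 1 differed by -1.33 where pairs 2 and 3 differed by -0.14 and -0.18. Relb did not pass with all pairs (-0.54 ± 0.306, adjusted p = 0.233) or without replicate 1 (-0.14 ± 0.0586, adjusted p = 0.0727).

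Neither inhibitor that holds dimers in the cytoplasm passed with all pairs. Nfkbia encodes IκBα, the fast feedback inhibitor, and lies on chromosome 12 from 55489410 to 55492647. It had 114.9, 114.8 and 112.3 CPM in positive replicates 1, 2 and 3, against 122.9, 117.5 and 119.2 CPM in negative replicates 1, 2 and 3. It was the steadiest member, with no library of one group inside the range of the other but a log2 fold change of only -0.07 ± 0.106 (adjusted p = 0.622), and -0.05 ± 0.0401 without replicate 1 (adjusted p = 0.326). Nfkbie encodes IκBε, a slower inhibitor of the same kind, on chromosome 17 from 45555703 to 45563169. Its level was 25.83, 36.76 and 35.07 CPM in positive replicates 1, 2 and 3, against 73.44, 45.19 and 45.96 CPM in negative replicates 1, 2 and 3. Positive libraries were below negative ones throughout, most in pair 1 (-1.51, against -0.30 and -0.39 in pairs 2 and 3). The change was -0.73 ± 0.304 with all pairs (adjusted p = 0.138), and -0.33 ± 0.0587 without replicate 1, where it passed (adjusted p = 0.0041).

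Both nuclear IκB proteins among the members fell at the RNA level. Nfkbiz encodes IκBζ, which works inside the nucleus and is needed for a second wave of genes such as Lcn2, and lies on chromosome 16 from 55811375 to 55838899. It had 24.66, 20.27 and 19.12 CPM in positive replicates 1, 2 and 3, against 34.81, 33.07 and 31.18 CPM in negative replicates 1, 2 and 3. The groups were clearly apart, and pair 1 showed the smallest difference (-0.50, against -0.71 and -0.70 in pairs 2 and 3). The means were 21.35 ± 2.93 CPM in positive and 33.02 ± 1.82 CPM in negative libraries, with a log2 fold change of -0.64 ± 0.116 (adjusted p = 0.0284), and -0.69 ± 0.0636 without replicate 1 (adjusted p = 0.000301).

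Bcl3 encodes a nuclear partner of DNA-bound Nfkb1 and Nfkb2 products, on chromosome 7 from 19808462 to 19822770. Its level was 67.94, 80.82 and 71.67 CPM in positive replicates 1, 2 and 3, against 136.6, 113.3 and 110.8 CPM in negative replicates 1, 2 and 3. All positive libraries were lower than all negative ones. The means were 73.47 ± 6.63 CPM in positive and 120.2 ± 14.2 CPM in negative libraries, with a log2 fold change of -0.71 ± 0.153 (adjusted p = 0.0385), and -0.55 ± 0.0499 without replicate 1 (adjusted p = 0.000297). An annotated gene on the opposite strand, Gm16174, overlaps Bcl3 and had 16 to 44 counts in positive and 23 to 83 counts in negative libraries, where Bcl3 had 2570 to 3968 counts in positive and 5058 to 5957 counts in negative libraries. Psd, which overlaps Nfkb2 on the opposite strand, had 1 to 10 counts in positive and 14 to 28 counts in negative libraries. The sources used here do not say if counting was by strand, so reads of such partners cannot be told apart.

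Tnfaip3, on chromosome 10 from 19000910 to 19015657, was the 1 member that rose. It had 85.86, 53.75 and 52.21 CPM in positive replicates 1, 2 and 3, against 59.62, 36.19 and 35.86 CPM in negative replicates 1, 2 and 3. The groups overlapped, because both libraries of replicate 1 were high, yet each positive library was above its negative partner by a similar step, 0.53, 0.57 and 0.54 on the log2 scale in pairs 1, 2 and 3. The log2 fold change was 0.55 ± 0.0995 (adjusted p = 0.0284), and 0.57 ± 0.0528 without replicate 1 (adjusted p = 0.000322). The call rests on the pairing, since without the replicate block the adjusted p was 0.191. It was also lost with library totals alone as scaling, where the log2 fold change was 0.20 (adjusted p = 0.294), with upper quartile factors (0.0666) and with the authors' normalized counts (0.108).

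**Figure D3:**
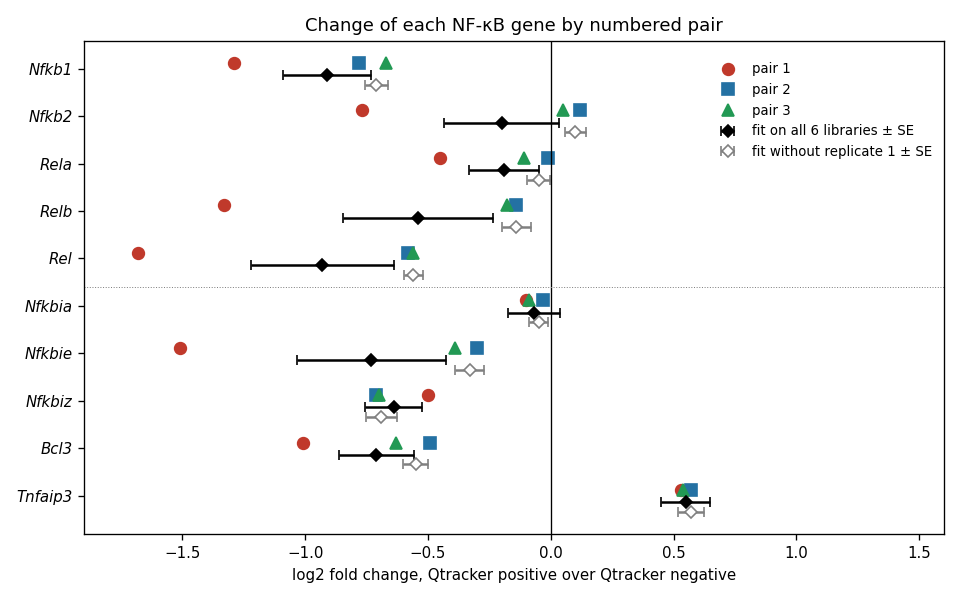
Log2 fold change of each member, Qtracker positive over Qtracker negative (horizontal), in each numbered pair (coloured symbols), in the fit on all 6 libraries (black diamonds ± SE) and in the fit without replicate 1 (open diamonds ± SE). The Tnfaip3 pairs lie together at 0.53 to 0.57, while Relb, Rel and Nfkbie have pair 1 far below pairs 2 and 3.

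Across the members, 8 were lower in every pair, as were 36% of all tested genes. Some of these differences were very small. Rela stood at -0.45, -0.01 and -0.11 on the log2 scale in pairs 1, 2 and 3, and Nfkbia at -0.1, -0.03 and -0.09. Tnfaip3 was higher in every pair, as were 36.7% of tested genes, and Nfkb2 was mixed. All 10 had their highest negative level in replicate 1, as did 47.7% of tested genes, and for 8 of 10 pair 1 differed most (58.9% of tested genes). The median log2 difference of the members was -0.89 in pair 1, against -0.22 and -0.28 in pairs 2 and 3. The median difference of B cell markers was -4.72 in pair 1, against -2.76 and -2.92 in pairs 2 and 3. Macrophage markers stood at 4.88 in pair 1, against 2.46 and 2.45 in pairs 2 and 3, and neutrophil markers at -3.44 in pair 1, against -6.44 and -6.35. The part of these cell types in the changes of the members was not tested.

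Nfkb1 and Rel made up a smaller share of the subunit RNA in positive than in negative libraries, and Rela and Nfkb2 a larger one. To compare genes, CPM were divided by merged exon length in kilobases. Of the summed level of the 5 subunits, Nfkb1 held 12.8 ± 1.13% in positive and 17.9 ± 0.232% in negative libraries (SD, n = 3 each). Rel held 9.63 ± 1.58% in positive and 13.6 ± 0.168% in negative libraries. Rela held 42.9 ± 2.12% in positive and 36.5 ± 2.52% in negative libraries, and Nfkb2 held 24.9 ± 0.716% in positive and 21.3 ± 0.919% in negative libraries. For these 4 subunits the shares of the groups did not overlap. The Rela share was higher by 6.38 percentage points with all pairs and by 3.74 without replicate 1. The share of Relb was 9.77 ± 0.779% in positive and 10.7 ± 1.44% in negative libraries, where the groups overlapped. These shares are a description with no test. They are parts of a whole, so a larger share does not mean a higher level. The mean level of Rela was 36.1 CPM per kilobase in positive and 41.4 in negative libraries. That of Nfkb2 was 21.1 in positive and 24.5 in negative libraries, and neither gene passed the test. Gene length matters for the levels, since the merged exons of Nfkb1 span 12061 bases and its longest transcript 4149. By longest transcript Nfkb1 held 27.2 ± 2.02% in positive and 35.9 ± 0.345% in negative libraries, so its rank among subunits depends on the length used while the direction of its difference did not.

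**Figure D4:**
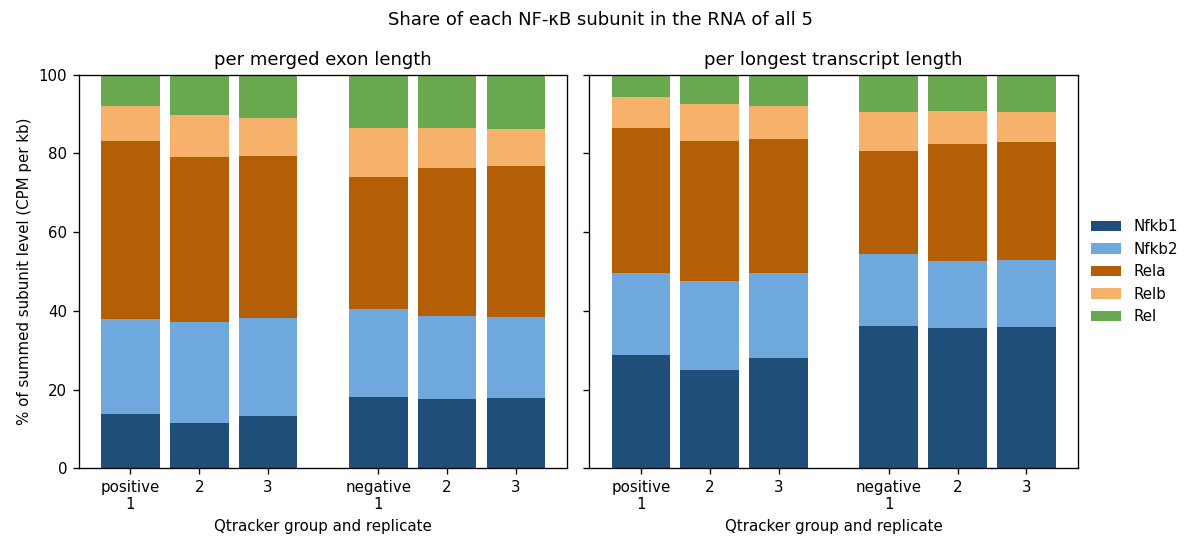
Share of each subunit in the summed CPM per kilobase of all 5 (vertical, percent), 1 bar per library, with Qtracker positive libraries left of Qtracker negative ones, by merged exon length (left) and by longest transcript (right). The Nfkb1 block is 11.5 to 13.7% in positive and 17.7 to 18.1% in negative libraries on the left.

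By merged exon length, Nfkbia was the most abundant member, at 70.8 ± 0.924 CPM per kilobase in positive and 74.4 ± 1.71 in negative libraries. Nfkbiz was among the least abundant, at 4.25 ± 0.583 in positive and 6.58 ± 0.362 in negative libraries. In positive libraries Rela followed at 36.1 ± 1.78, then Bcl3 at 29.7 ± 2.68 and Nfkb2 at 21.1 ± 2.41 CPM per kilobase. Nfkb1 (10.8 ± 0.633), Nfkbie (10.7 ± 1.93), Tnfaip3 (8.85 ± 2.63), Relb (8.28 ± 1.35) and Rel (8.2 ± 1.93) came next, and these neighbours do not differ beyond their spread. In negative libraries Bcl3 (48.6 ± 5.75) stood above Rela (41.4 ± 4.96), within their spread, followed by Nfkb2 (24.5 ± 5.9), Nfkb1 (20.5 ± 4.25), Nfkbie (18.0 ± 5.29), Rel (15.6 ± 3.08) and Relb (12.4 ± 4.16), and neighbours among these 5 lay within their spread. Tnfaip3 (6.07 ± 1.89) and Nfkbiz were lowest and lay within their spread. The place of Nfkb1 in this order depends on the length used. By longest transcript it stood at 31.3 ± 1.84 in positive libraries, above Nfkb2 (25.1 ± 2.87). In negative libraries it then stood at 59.7 ± 12.3, above Rela (46.8 ± 5.61) but within their spread. The ratio of Nfkbia to the 5 subunits together, by merged exon length, was 0.939, 0.792 and 0.8 in positive replicates 1, 2 and 3. It was 0.544, 0.72 and 0.727 in negative replicates 1, 2 and 3. Every positive library was above every negative one, most in pair 1. The difference of the group means was 0.18 with all pairs and 0.0724 without replicate 1.

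Beyond the members, 83 tested genes of the pathway were read from the same fit, and 8 rose and 16 fell, where 18.5% of all tested genes were higher and 16.3% lower. Without replicate 1, 37 were higher and 35 lower, where 72.9% of all genes were called. Of the 10 called genes named for lowest p or largest change, edgeR lost 9 without replicate 2 and 10 without replicate 3, while DESeq2 kept 9 each time. Of the other 13 called genes named here, edgeR lost 13 each time and DESeq2 lost 6 each time (Traf3, Irak2, Irak3, Traip, Icam1 and Il1b). Scaling by library totals alone also ended the calls of Irak2 (adjusted p = 0.19) and Icam1 (0.215), and leaving out the replicate block those of Irak3 (0.159) and Il1b (0.222). Upper quartile factors ended those of Irak2 (0.0558) and Icam1 (0.0968). Icam1 was lost too with median-of-ratios factors (0.0503) and the 50-count filter (0.0536), and Irak2 with the authors' normalized counts (0.0868 by limma). With no filter 4 of the other called genes were lost, among them Irak2 (0.0539) and Il1b (0.0681). Pathway calls named here had adjusted p-values from 0.0063 (Otud7b) to 0.0488 (Il1b). In the remaining IκB family, Nfkbid, a nuclear member, fell by 1.26 on the log2 scale (17.87 ± 4.3 CPM in positive and 42.23 ± 4.95 CPM in negative libraries, adjusted p = 0.0335), and Nfkbib did not pass (0.20 ± 0.1, adjusted p = 0.2). Among 23 genes of the IκB kinase and its upstream signalling, 0 rose and 3 fell, with a median log2 fold change of -0.17. Those that fell were Traf1 (-2.70 ± 0.401), an adaptor of tumour necrosis factor receptors, Birc2 (-1.03 ± 0.234), a ubiquitin ligase that keeps the slower branch off, and its partner Traf3 (-0.47 ± 0.113). The kinase subunits themselves did not pass, with Chuk at 0.13 (adjusted p = 0.428), Ikbkb at -0.41 (0.185) and Ikbkg at 0.47 (0.0595).

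Of 20 receptors and adaptors 3 were higher and 4 lower, a share near the 34.9% called among all tested genes. Tnfrsf11a, the receptor RANK of the osteoclast and macrophage lineage, rose by 2.14 ± 0.174 on the log2 scale, with 73.4 ± 19.4 CPM in positive and 16.19 ± 1.11 CPM in negative libraries. Tnfrsf1b, a tumour necrosis factor receptor, rose to 747.7 ± 146 CPM in positive libraries, against 238.5 ± 87.4 CPM in negative libraries, and the interleukin receptor kinase Irak2 rose by 0.57 ± 0.131. Among the genes that fell were Tnfrsf13c (-3.33 ± 0.59), the BAFF receptor of B cells, Malt1 (-1.55 ± 0.279), which relays antigen receptor signals to the IκB kinase, and Il1r1 (-2.93 ± 0.347), at 0.234 ± 0.0304 CPM in positive and 1.86 ± 0.644 CPM in negative libraries. Tnfrsf13c stood at 11.6, 16.8 and 16.3 CPM in positive replicates 1, 2 and 3, against 321.1, 102.2 and 103.8 CPM in negative replicates 1, 2 and 3. Like the B cell marker sum, it was highest in negative replicate 1. Other negative regulators had 0 of 14 higher and 4 lower, where 18.5% of all tested genes were higher and 16.3% lower. Those 4 were the deubiquitinase Otud7b (-2.24 ± 0.118), the ligase Pdlim2 (-1.37 ± 0.207), which removes nuclear Rela protein in mice, the inactive kinase Irak3 (-0.61 ± 0.0993) and Traip (-2.03 ± 0.489).

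Known targets of NF-κB had 5 of 24 tested genes higher and 4 lower, where 18.5% of all tested genes were higher and 16.3% lower. Their median log2 fold change was 0.58, against -0.01 over all tested genes. Without replicate 1 it was 0.34, against 0.01 over all genes tested there. By pair the median of the targets was 1.19 in pair 1, against 0.23 and 0.37 in pairs 2 and 3. The survival genes Bcl2a1b (2.77 ± 0.149, uncertain because reads may be split among almost identical gene copies) and Bcl2l1 (2.23 ± 0.473), the superoxide dismutase Sod2 (1.48 ± 0.112), the adhesion molecule Icam1 (0.82 ± 0.196) and the chemokine Ccl2 (3.58 ± 0.678) rose. Ccl2 stood at 1269 CPM in positive replicate 1 and at 162.0 and 166.8 CPM in positive replicates 2 and 3, against 23.4 to 33.5 CPM in negative libraries. Those that fell were the cytokine chain Il12b (-3.11 ± 0.234), the chemokine Ccl5 (-3.21 ± 0.365), Il1b (-0.74 ± 0.181) and Lcn2 (-6.22 ± 1.07). Lcn2 is also a granule gene of neutrophils, and it had 22.0, 44.3 and 47.5 CPM in positive replicates 1, 2 and 3, against 323.2, 6857 and 6823 CPM in negative replicates 1, 2 and 3. Like the neutrophil marker sum, it was far higher in negative replicates 2 and 3 than in the other libraries. Il6 was not analysed here, and Cxcl1 was below the filter.

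**Figure D5:**
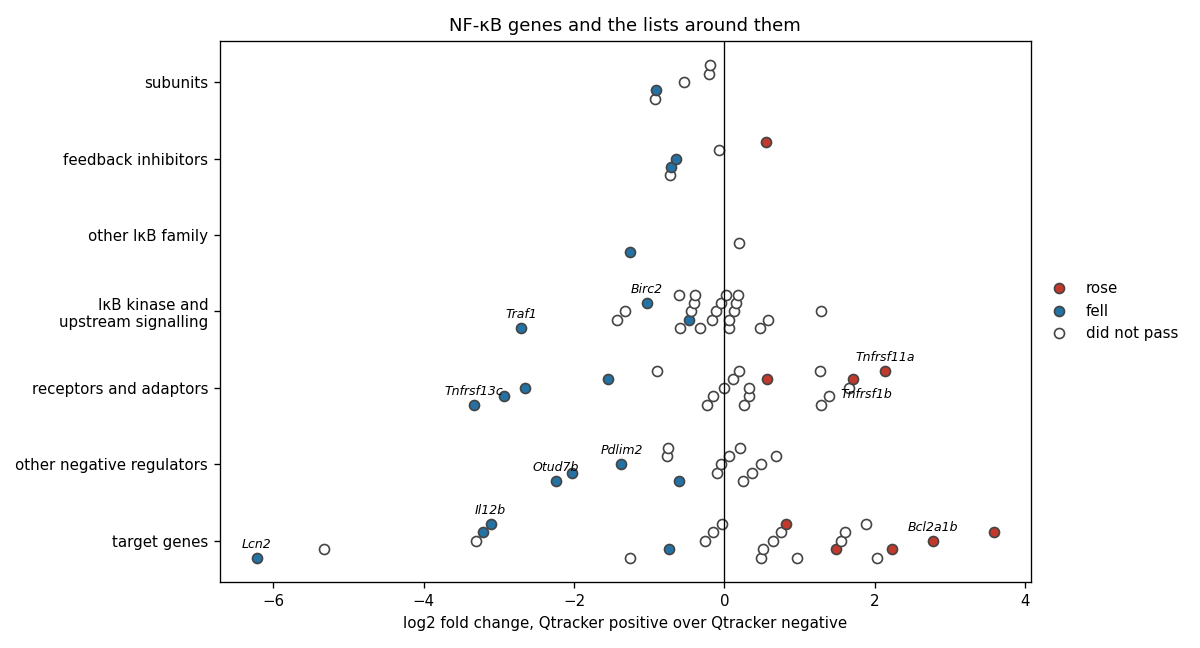
Log2 fold change, Qtracker positive over Qtracker negative (horizontal), of every tested gene in the member and pathway lists (1 point per gene), coloured where the gene rose or fell at an adjusted p under 0.05. Members lie between -0.93 and 0.55, while receptors, regulators and targets reach from -6.22 to 3.58.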

How the data were processed

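RNA from 6 sorted cell libraries was sequenced after preparation with a stranded kit, per the labels' protocols. The authors deposited expected counts per gene as whole numbers, made with FastQC, Salmon and mm10 per the submitters' processing notes, which give no versions. The sources used here do not say how human reads were treated. The authors also deposited a normalized signal, the raw value times a factor that varies by gene and library, which served as an alternative only.

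Genes passing filterByExpr (minimum count 10, total 15) were scaled by TMM and tested by edgeR 4.0.16 (quasi-likelihood, R 4.3.3) with Benjamini-Hochberg adjustment over all tested genes. Standard errors come from the F statistic, and log2 CPM use a prior count of 2. Replicate number was a block because the series text describes pairing. Same-numbered deviations from group means correlated at 0.198, 0.0769 and 0.158 across genes in pairs 1, 2 and 3. Positive replicate 3 with negative replicate 2 gave 0.147, and positive replicate 2 with negative replicate 3 gave 0.116. Both exceeded the value of pair 2, so these correlations could not separate pairs 2 and 3. Mismatched combinations that included replicate 1 ran from -0.185 to -0.114. The pairing was therefore taken from the series text and was not shown by the counts. Gene positions and lengths are from GENCODE M21 (mm10), which held 21625 identifiers and filled 5210 symbols. Alternatives were median-of-ratios, upper quartile or no scaling, other filters, DESeq2 1.42.0, limma 3.58.1, no block, leaving out each replicate, and summing replicates 2 and 3. The pipeline was tested on simulated data.

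The members and lists were chosen with earlier results of these data known. Named genes were all members, the 2 of lowest p and the 1 of largest change in each pathway list with at least 5 measured genes, and the closest pathway gene to each member. Nfkbid, Traf3, Chuk, Ikbkg, Tbk1, Ikbke, Klra8, Cd209a, Cd28, Itgam, Mmp8, Ccr7 and Irak2 were named after their values were seen. So were Il1r1, Irak3, Traip, Bcl2l1, Sod2, Icam1, Ccl2, Ccl5, Il1b and Cxcl1. The values of 1 pathway gene are not reported here.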

Additional observations from a re-analysis of the deposited data

How the results depend on the processing

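With median-of-ratios factors, the 50-count filter and limma-voom every member kept its direction and its side of the threshold. Over the 17 alternatives all members but Nfkb2 kept their direction. Among pathway genes that did not pass, Chuk turned to -0.0178 with upper quartile factors, -0.2235 with library totals and -0.1126 with the authors' normalized counts, Nfkbib to -0.1543 and Tbk1 to -0.188 with library totals, and Ticam1 to 0.0435 (edgeR) and 0.0159 (DESeq2) without replicate 1. Tbk1 was also -0.0347 (edgeR) and -0.067 (DESeq2) with replicates 2 and 3 summed, and with a replicate left out it ran from -0.0585 to 0.5564 by edgeR and from -0.0847 to 0.5288 by DESeq2 (-0.0749 without replicate 2). Ticam1 ran from -0.2636 to 0.0435 by edgeR. Nfkb2 turned to 0.0981 without replicate 1 by edgeR and 0.0706 by DESeq2, and was -0.354 without replicate 2. Library totals alone moved the median of all genes to -0.357 and upper quartile factors to -0.152, from -0.010 by TMM, and relative to these shifts the member directions held.

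Without the replicate block, 0 members were higher and 4 lower (2911 and 3058 of all genes), Tnfaip3 losing its call and Rel gaining one. Members higher were 0, not 1, with upper quartile factors, library totals and the authors' normalized counts. With no filter Bcl3 lost its call (adjusted p = 0.0552), and with the authors' normalized counts it had 0.0508. By edgeR with replicates 2 and 3 summed, 0 members, 0 pathway genes and 0 genes in all were called, although 4488 genes, 2 of them members, had an unadjusted p under 0.05. DESeq2 on the same sums, added after the data were seen like its versions with a replicate left out, called 1582 genes higher and 1907 lower, with 0 members and with 16 pathway genes higher. Library totals alone called 1572 genes higher and 3316 lower, and DESeq2 on all libraries 3421 and 3665, with 15 pathway genes higher.

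With each replicate left out in turn, over edgeR and DESeq2, genes higher ranged from 0 to 5538 and lower from 0 to 5352. Members higher ranged from 0 to 1 and lower from 0 to 5, and pathway genes from 0 to 37 higher and 0 to 35 lower. The lowest counts came without replicate 3 by edgeR, with 4209 genes at an unadjusted p under 0.05 and 1477 higher and 1749 lower by DESeq2. Without replicate 1 DESeq2 called 4448 higher and 4474 lower, with 28 and 34 pathway genes, and without replicate 2 it called 1513 higher and 1781 lower. By longest transcript, the share of Nfkb1 differed by -8.68 percentage points (-5.11 by merged exons) and that of Rel by -2.34 (-3.99). Without replicate 1 the Relb share difference was 0.28, against -0.909 with all pairs. The cause of these shifts was not tested. Counting error limited single member levels to at most 3.32%.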

Other observations

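Tbk1, a kinase that signals beside the IκB kinase and feeds interferon genes, differed by replicate more than by group. It had 6.1, 84.3 and 85.9 CPM in Qtracker positive replicates 1, 2 and 3, against 9.8, 58.1 and 58.5 CPM in negative replicates 1, 2 and 3. Both libraries of replicate 1 were thus low. Its log2 fold change was 0.15 with all pairs (adjusted p = 0.72) and 0.56 without replicate 1 (adjusted p = 0.000128). Its relative Ikbke was at 193.5, 266.7 and 247.9 CPM in positive replicates 1, 2 and 3, against 39.0, 153.9 and 144.6 CPM in negative replicates 1, 2 and 3, and did not pass (log2 fold change 1.28 ± 0.399, adjusted p = 0.0765). Without replicate 1 it was 0.80 ± 0.0391.

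Member profiles of log2 CPM over the 6 libraries, which share 3 pairs and the 2 groups, are given as a description. Coefficients among the 9 members other than Tnfaip3 ran from 0.37 (Nfkb2 with Nfkbiz) to 0.98. Relb and Nfkbie correlated at 0.98, Rela and Relb at 0.98, and Nfkb1 and Bcl3 at 0.97, while Tnfaip3 had negative coefficients with the other 9, from -0.03 to -0.60. Among 83 pathway genes the closest to Nfkb1 was Malt1 (0.99), to Nfkb2 Ticam1 (0.96), and to Rela and Relb Ikbkb (0.98 and 0.99). The closest to Rel was Traf2 (1.0), to Nfkbia Traf5 (0.98), to Nfkbie Cd83 (0.99), to Nfkbiz Il12b (0.98), to Bcl3 Tnfrsf13c (0.99) and to Tnfaip3 Nfkbib (0.98).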
